A study of Gallus gallus with 12 samples.

Results

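The genes described here take part in RNA splicing or bind RNA. They are the named genes on the array whose symbol begins with HNRNP, SRSF, SF3, SNRP, PRPF, LSM and a digit, RBM, DDX or DHX, together with SYNCRIP, LARP4B and PUM2. The array held 46 such genes, and 45 of them had a value on all 12 arrays, among 2238 named genes and 3700 features that did. The exception was HNRNPD, with no value on 1 array. By family, 6 of the 7 HNRNP genes were tested, and all of the 5 SRSF, 3 SF3, 2 SNRP, 5 PRPF, 2 LSM, 11 RBM, 5 DDX and 3 DHX genes. SYNCRIP, LARP4B and PUM2 were added by name with their earlier results in these data known, so their calls are no independent evidence. Some counts are also given for the other 42 genes.

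HTC cells, a chicken macrophage line, had been stimulated with 1 of 3 Eimeria species, E. tenella, E. maxima or E. acervulina, the protozoa that cause coccidiosis in poultry, for 4, 18 or 48 h, or left unstimulated. The polyA RNA was labelled with Alexa555 and Alexa647 and hybridized in pairs to 12 two-colour cDNA arrays, 4 arrays per species in a closed loop. Each species and time had a single RNA sample, so a time is replicated only by its 3 species, and no label says that their cultures were separate. The labels give the unstimulated RNA of every loop one name, and do not say whether the loops shared a single RNA. If they did, its own error is common to the 3 species, and p-values of contrasts against it are too small. No label names unstimulated cells grown on to 4, 18 or 48 h, and the effects of the parasite and of time in culture cannot be told apart. HTC is a cell line, not primary macrophages, and ratios on a two-colour array hold no levels, so its identity could not be checked from marker levels. Of 10 macrophage markers, 8 were tested. LYZ passed the threshold at 4 h and over the mean of the times, CYBB did at 48 h, and the others passed in none of the comparisons with unstimulated cells. Passing marks a change in either direction and says nothing of identity. The changes of the 8 ran from -0.93 to 0.35 at 4 h and from -0.89 to 0.41 at 48 h. Of the T cell, erythroid and epithelial markers, 2 of 6, 1 of 5 and 1 of 4 were tested and none passed, and none of the B cell, fibroblast and heterophil markers was tested.

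Every value below is a log2 change, in the likely direction only. The ratio was read as Alexa555 over Alexa647 because the sample titles name the Alexa555 sample first. An earlier reading of these data had settled on it after chemokine signs remembered from the study. Under the other reading every sign turns, and higher and lower swap, while sizes, total counts and tests stay. In no loop did unstimulated and 18 h RNA, or 4 h and 48 h RNA, share an array, so those differences carry more array error. The residual spread between arrays had a median of 0.112 on the log2 scale over the 45 genes, against 0.132 over all features.

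Splicing removes introns from pre-mRNA on the spliceosome, a machine of small nuclear ribonucleoproteins (snRNPs) built on Sm and LSM rings, to which the SF3 and PRPF proteins belong. SR proteins, encoded by the SRSF genes, generally promote the use of exons, and the hnRNP proteins that coat pre-mRNA often oppose them. RNA helicases of the DEAD-box (DDX) and DEAH-box (DHX) families remodel these complexes, and other RNA-binding proteins influence how long an mRNA lasts and how often it is translated. In macrophages, regulated splicing and mRNA decay are known to shape the output of cytokine genes.

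At 4 h, 5 of the 45 genes passed the threshold as higher than in unstimulated cells, or 11.1%, against 4.51% of all features. They were SYNCRIP, LARP4B, PUM2, DDX5 and DDX3X, so 2 of the 42 genes that belong to a named family, a share close to that of all features. None of the 45 passed as lower at 4 h, against 5.89% of all features. At an unadjusted p under 0.05, 2 of the 45 and 612 of the 3700 features were lower. The threshold was an adjusted p under 0.05 from limma with Benjamini-Hochberg adjustment over all 3700 features. At 18 h, 3 genes were called higher, SYNCRIP, LARP4B and PUM2, against 1.14% of all features. None was called lower, against 0.486% (2 of the 45 and 511 of the 3700 features lower at an unadjusted p under 0.05). None of the 42 family genes was called at 18 h. At 48 h, LARP4B and PUM2 were called higher, against 1.73% of all features. None of the 42 family genes was called higher at 48 h. SRSF7L was the single gene called lower at 48 h, against 1.86%. Over the mean of the 3 times, LARP4B, SYNCRIP, PUM2 and DDX5 were called higher, 8.89% of the 45, against 4.16% of all features. Only DDX5 of the 42 family genes was among them, a share below that of all features. None was called lower over the mean, against 6.3%, with 3 of the 45 and 687 of the 3700 features lower at an unadjusted p under 0.05.

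**Figure D1:**
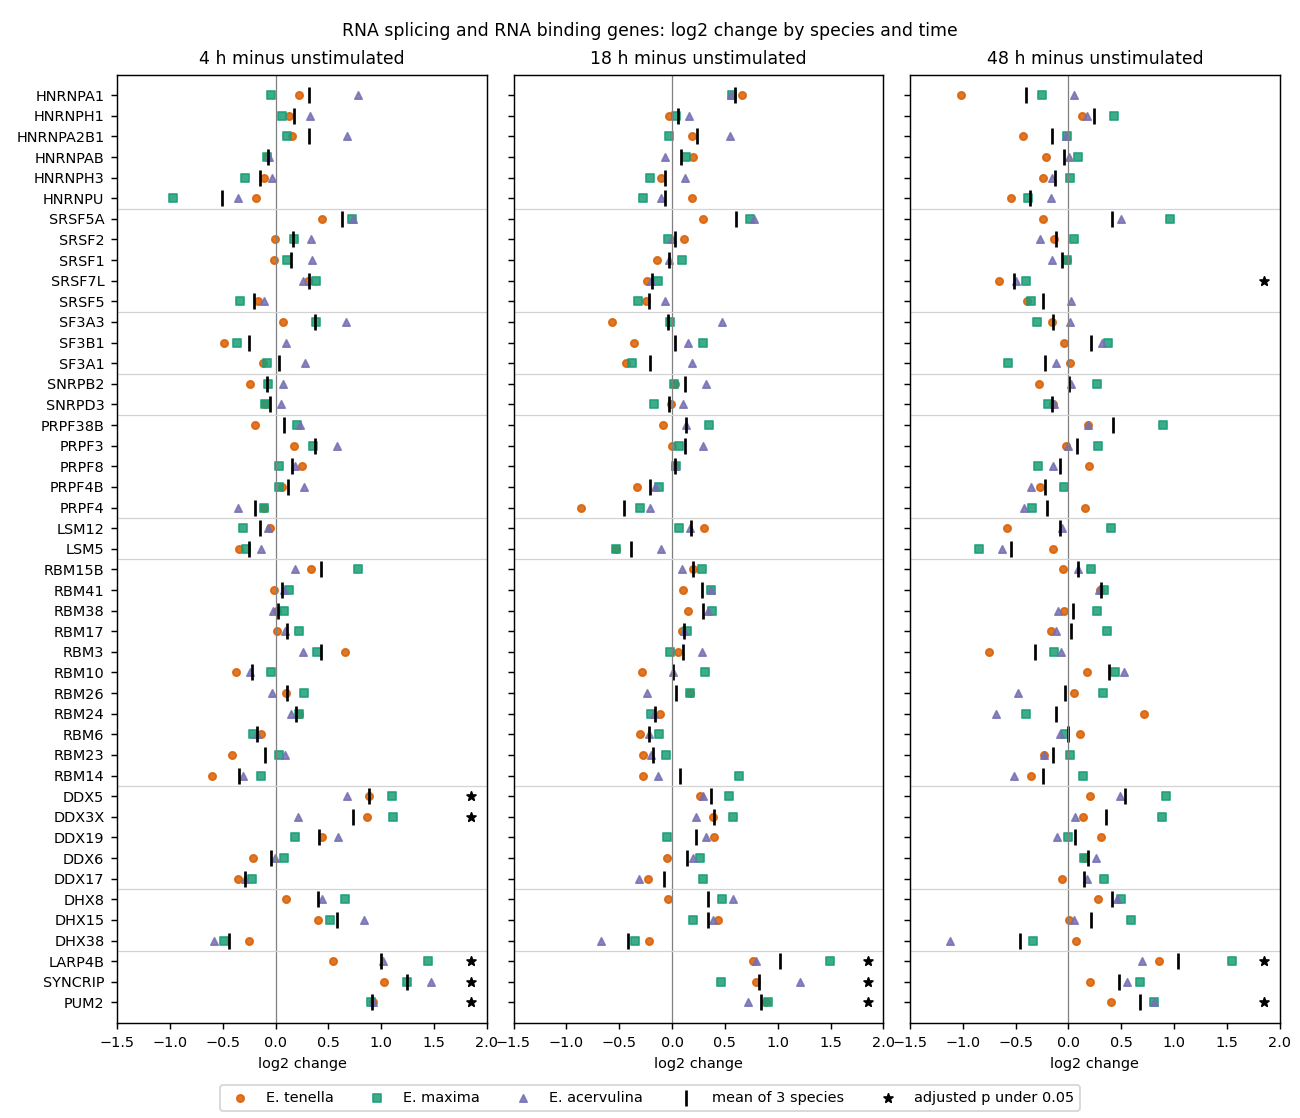
Log2 change against unstimulated cells at 4, 18 and 48 h (panels, x axes) for each of the 45 genes (rows, grouped by family). Symbols are the 3 parasite species, black bars their mean, and stars mark an adjusted p under 0.05. LARP4B, SYNCRIP and PUM2 lie right of 0 in every species and panel, and SRSF7L lies left of 0 in every species at 48 h.

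The calls depend on having all 3 species. The named genes had 19 calls over the comparisons between times, and 4 of these, all at 4 h, kept an adjusted p under 0.05 without E. tenella. None did without E. maxima or without E. acervulina, with adjusted p between 0.0598 and 0.277 without E. maxima and between 0.0995 and 0.251 without E. acervulina. Over all features the 385 calls at 4 h became 76 with E. tenella left out, 1 with E. maxima left out and 0 with E. acervulina left out. No call changed its direction when a species was left out.

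SYNCRIP encodes an hnRNP-like protein that in mammals acts on mRNA stability, transport and translation. At 4 h its change was 1.03 in E. tenella, 1.24 in E. maxima and 1.47 in E. acervulina cultures, and at 18 h it was 0.80, 0.47 and 1.21 in the same order. By 48 h the values were 0.20, 0.68 and 0.55. All 9 stimulated samples lay above unstimulated cells, and each species had its highest value at 4 h. The mean was 1.25 ± 0.22 at 4 h (SD, n = 3 species; limma adjusted p = 0.0096), 0.83 ± 0.37 at 18 h (adjusted p = 0.049) and 0.48 ± 0.25 at 48 h (adjusted p = 0.12). Among the 3700 features SYNCRIP ranked 23rd from the highest at 4 h, 71st at 18 h and 230th at 48 h.

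LARP4B, a La-related protein that in human cells binds mRNA and stimulates translation, had nearly the same mean at each time. With E. tenella it changed by 0.55, 0.77 and 0.86 at 4, 18 and 48 h. With E. acervulina the values were 1.02, 0.79 and 0.70, and with E. maxima they were 1.44, 1.49 and 1.55. E. maxima lay above the other species at every time. The mean was 1.001 ± 0.45 at 4 h, 1.02 ± 0.41 at 18 h and 1.04 ± 0.45 at 48 h (adjusted p = 0.016, 0.040 and 0.026). Without E. maxima the means were 0.78 at each of the 3 times, with adjusted p between 0.13 and 0.24. Over the mean of the times LARP4B ranked 17th from the highest of the 3700 features and 7th of the 2238 named genes.

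PUM2 encodes a Pumilio protein, which binds short elements in mRNAs and represses them. At 4 h it changed by 0.92, 0.90 and 0.92 in the E. tenella, E. maxima and E. acervulina cultures, with an SD of 0.01 between species. Its residual array spread of 0.24 was above the median of 0.112 over the genes, so the arrays cannot resolve agreement that close. At 18 h the 3 values were 0.89, 0.91 and 0.72, and at 48 h they were 0.41, 0.81 and 0.81. The E. tenella sample at 48 h was the lowest of the 9. The mean was 0.91 at 4 h, 0.84 ± 0.11 at 18 h and 0.67 ± 0.23 at 48 h (adjusted p = 0.0096, 0.036 and 0.026). Without E. acervulina the adjusted p of PUM2 was between 0.13 and 0.20 at the 3 times.

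**Figure D2:**
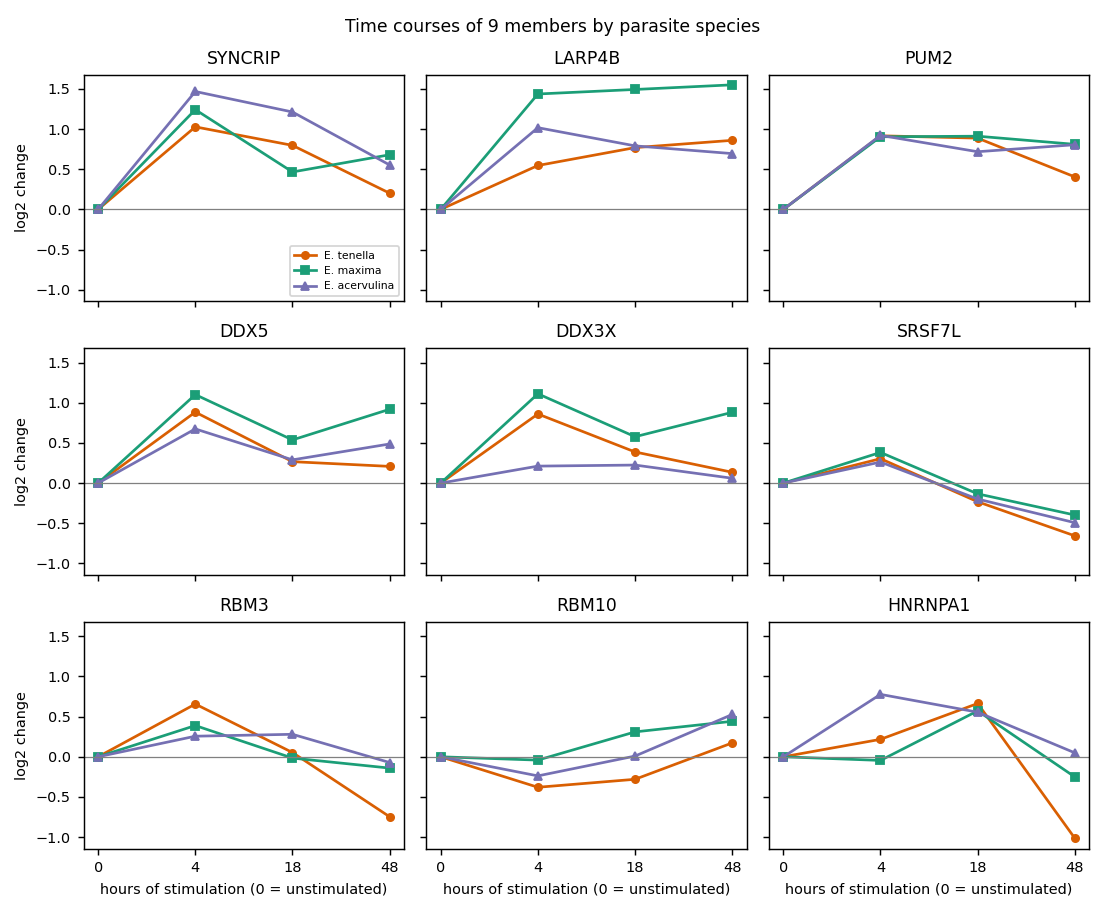
Log2 change (y axes) at 0 (unstimulated), 4, 18 and 48 h (x axes, evenly spaced, not to scale in time) of 9 genes, with 1 line per parasite species and 1 RNA sample per point. SYNCRIP was highest at 4 h in all 3 species. From 4 to 48 h LARP4B changed little with E. maxima, rose with E. tenella and fell with E. acervulina. SRSF7L passed from above to below 0, and HNRNPA1 dropped between 18 and 48 h.

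Among the DEAD-box helicases, DDX5, a splicing helicase and transcription coactivator, rose at 4 h. Its changes at 4 h were 0.88, 1.10 and 0.67 in the E. tenella, E. maxima and E. acervulina cultures. At 18 h they were 0.27, 0.54 and 0.29, and after 48 h 0.21, 0.92 and 0.49. E. maxima was highest at each time. The mean at 4 h was 0.89 ± 0.21 (adjusted p = 0.010), and neither 0.36 ± 0.15 at 18 h (adjusted p = 0.13) nor 0.54 ± 0.36 at 48 h (adjusted p = 0.065) passed. Over the mean of the times the change was 0.60 (SE 0.11, adjusted p = 0.021). At 4 h the adjusted p was 0.12 without E. maxima and 0.13 without E. acervulina.

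DDX3X, a helicase of translation initiation that also acts in innate immune signalling, changed at 4 h by 0.86 with E. tenella, 1.11 with E. maxima and 0.21 with E. acervulina. The E. acervulina cultures had the lowest value at each time, with 0.22 at 18 h and 0.06 at 48 h. E. tenella and E. maxima cultures had 0.39 and 0.58 at 18 h, then 0.13 and 0.88 by 48 h. The mean at 4 h was 0.73 ± 0.46 (adjusted p = 0.036), while those of 0.40 ± 0.18 at 18 h and 0.36 ± 0.45 at 48 h did not pass (adjusted p = 0.20 and 0.24). Leaving out E. tenella, E. maxima or E. acervulina gave a change of 0.66, 0.54 or 0.99 at 4 h and adjusted p of 0.15, 0.22 or 0.13.

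The other DEAD-box genes did not pass. DDX17, the close paralog of DDX5, changed by -0.36, -0.22 and -0.29 at 4 h, below 0 in each species where DDX5 was above it. Its cDNA clones disagreed, with 4 h means of 0.19 and -0.71, so the negative sign came from a single clone. DDX19, an mRNA export helicase, averaged 0.41 ± 0.21 at 4 h (adjusted p = 0.082). DDX6, which acts in mRNA decapping and storage, averaged -0.05 ± 0.15 at 4 h and 0.19 ± 0.07 at 48 h.

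The 3 DEAH-box genes encode spliceosome helicases, and none of them passed. DHX15, which takes the spliceosome apart, changed by 0.40, 0.52 and 0.84 at 4 h in the E. tenella, E. maxima and E. acervulina cultures, and averaged 0.59 ± 0.23 (adjusted p = 0.059). DHX8, which releases the mature mRNA, averaged 0.40 ± 0.28, 0.34 ± 0.33 and 0.41 ± 0.12 at 4, 18 and 48 h, with an adjusted p of 0.053 over the mean of the times. DHX38, needed for the catalytic steps, had values of the other sign. With E. acervulina it changed by -0.59, -0.68 and -1.12, with E. maxima by -0.49, -0.35 and -0.34, and with E. tenella by -0.25, -0.22 and 0.07. The E. acervulina value at 48 h was the lowest of the 45 genes in any sample. Its mean of -0.44 over the 3 times (SE 0.15, adjusted p = 0.091) was the most negative of the 45 genes, and its residual array spread of 0.48 was far above their median.

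Among the SR protein genes, SRSF7L, annotated as SRSF7-like, moved in step in all 3 species. At 4 h it changed by 0.30, 0.38 and 0.26 in the E. tenella, E. maxima and E. acervulina cultures. At 18 h the values were -0.23, -0.13 and -0.20, and at 48 h -0.66, -0.40 and -0.49. The 3 times did not overlap. Its mean of 0.32 ± 0.06 at 4 h did not pass (adjusted p = 0.056), nor did -0.19 ± 0.05 at 18 h (adjusted p = 0.22). At 48 h it fell, with a mean of -0.52 ± 0.13 (adjusted p = 0.026). That call ended without E. tenella, E. maxima or E. acervulina, at adjusted p of 0.12, 0.24 and 0.12 with changes of -0.45, -0.57 and -0.53.

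SRSF5A and SRSF5 are separate records of related genes, and their mean changes against unstimulated cells had opposite signs at each of the 3 times. At 4 h SRSF5A changed by 0.44, 0.72 and 0.73 in the E. tenella, E. maxima and E. acervulina cultures. The 18 h values were 0.29, 0.74 and 0.77, and the 48 h values -0.24, 0.96 and 0.50. It was positive in all but the 48 h E. tenella sample, and its mean over the times was 0.55 (SE 0.16, adjusted p = 0.053). SRSF5 averaged -0.20 ± 0.12, -0.22 ± 0.13 and -0.24 ± 0.23 at the 3 times, none of which passed. In single samples at 48 h SRSF5 had the same sign as SRSF5A with E. tenella (-0.40) and E. acervulina (0.02). Whether related transcripts cross-hybridized to these clones was not tested. SRSF1, the founding SR protein, and SRSF2 had means between -0.12 and 0.17 at the 3 times.

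None of the 6 genes with an HNRNP symbol passed against unstimulated cells. HNRNPA1, an abundant repressor of splice sites, changed at 4 h by 0.22, -0.05 and 0.78 in the E. tenella, E. maxima and E. acervulina cultures. At 18 h the 3 species lay close together, at 0.66, 0.57 and 0.56, and at 48 h apart, at -1.01, -0.25 and 0.05. Between 18 and 48 h each species moved down, with a mean difference of -1.002 that missed the threshold (adjusted p = 0.26, unadjusted p = 0.0017). HNRNPA2B1, its paralog, averaged 0.31 ± 0.32, 0.24 ± 0.29 and -0.15 ± 0.24 at the 3 times.

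HNRNPU, a nuclear scaffold protein that binds RNA and chromatin, had the lowest mean of the 45 genes at 4 h. It changed by -0.19, -0.97 and -0.36 in the E. tenella, E. maxima and E. acervulina cultures, with a mean of -0.51 ± 0.41 (adjusted p = 0.094). The E. maxima sample set most of that mean. At 18 h the mean was -0.06 ± 0.24 and at 48 h -0.36 ± 0.19. HNRNPAB, HNRNPH1 and HNRNPH3 had means between -0.14 and 0.24 at the 3 times.

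None of the 3 SF3, 2 SNRP, 5 PRPF and 2 LSM genes, grouped by symbol, passed against unstimulated cells at any time. SF3A1, SF3A3 and SF3B1 belong to the snRNP that binds the branch point. SF3A1 averaged 0.03 ± 0.22, -0.21 ± 0.35 and -0.23 ± 0.30 at 4, 18 and 48 h, SF3A3 0.37 ± 0.30, -0.04 ± 0.52 and -0.15 ± 0.16, and SF3B1 -0.25 ± 0.31, 0.03 ± 0.34 and 0.22 ± 0.22. SNRPD3, a subunit of the Sm ring, averaged -0.05 ± 0.09, -0.02 ± 0.14 and -0.16 ± 0.03.

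PRPF4, of the tri-snRNP, changed at 18 h by -0.87 with E. tenella, -0.30 with E. maxima and -0.21 with E. acervulina. Its mean of -0.46 ± 0.36 was the lowest of the 45 genes at 18 h but did not pass (adjusted p = 0.19). PRPF3, its partner in the same particle, averaged 0.37 ± 0.20, 0.12 ± 0.16 and 0.08 ± 0.17 at the 3 times. PRPF8, the scaffold of the catalytic core, averaged 0.16 ± 0.11, 0.03 ± 0.01 and -0.08 ± 0.25. PRPF38B reached 0.89 at 48 h with E. maxima, against 0.19 and 0.18 with the other species.

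LSM5, a subunit of the LSM rings of splicing and mRNA decay, was the only one of the 45 genes below unstimulated cells in all 9 stimulated samples. At 4 h it changed by -0.34, -0.28 and -0.14 in the E. tenella, E. maxima and E. acervulina cultures, at 18 h by -0.53, -0.53 and -0.11, and at 48 h by -0.14, -0.85 and -0.63. Its 48 h mean of -0.54 ± 0.36 was the lowest of the 45 genes at that time and did not pass (adjusted p = 0.096). The mean over the times was -0.39 (SE 0.14, adjusted p = 0.093). At the other end, 6 genes were above unstimulated cells in all 9 samples, namely SYNCRIP, LARP4B, PUM2, DDX5, DDX3X and DHX15. SYNCRIP, LARP4B and PUM2 among them were added with results known. The shares of all features with all 9 samples on one side were not computed. Whether these counts of genes differ from the rest of the array was therefore not tested. The pattern also occurred in the wider list of RNA processing genes described below. There CDC5L, G3BP2, LARP1, SON, SRPK1, SRPK2 and SRRM1 were above unstimulated cells in all 9 samples. BCAS2, NONO, TIA1 and YBX1 were below them in all 9. The stimulated samples of a species share the unstimulated RNA of their loop, so the 9 signs are not independent. LSM12, the other LSM gene, differed between species at 48 h, with -0.58, 0.40 and -0.06 in the E. tenella, E. maxima and E. acervulina cultures.

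None of the 11 RBM genes passed against unstimulated cells. RBM3, a cold-inducible protein that binds mRNA, changed at 4 h by 0.66, 0.39 and 0.26 in the E. tenella, E. maxima and E. acervulina cultures, and at 48 h by -0.75, -0.14 and -0.07. RBM10, a splicing regulator, ran the other way, from negative values of -0.38, -0.04 and -0.24 at 4 h to 0.17, 0.44 and 0.53 at 48 h. RBM15B, a partner of the complex that methylates adenosines in mRNA, changed by 0.33, 0.78 and 0.18 at 4 h (mean 0.43 ± 0.31, adjusted p = 0.057). RBM14, a transcription coactivator that binds RNA, changed by -0.60, -0.14 and -0.31 at 4 h, and at 18 h E. maxima had 0.63 against -0.27 and -0.13 with E. tenella and E. acervulina. The means of the other 7 RBM genes lay between -0.21 and 0.31 at every time. Single species could lie far from these means, as for RBM24 at 48 h, with 0.72, -0.40 and -0.68 in the same order.

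As a whole the 45 genes had a median change of 0.11 at 4 h, 0.08 at 18 h and -0.03 at 48 h, against -0.03, 0.00 and -0.03 for all features. Without SYNCRIP, LARP4B and PUM2 the medians were 0.09, 0.04 and -0.05. With E. acervulina left out the medians of the 45 genes were 0.0514, 0.0358 and 0.0423 at 4, 18 and 48 h, so the sign at 48 h turned, as it did with arrays centred (0.0067). At 4 h, 28 of the 45 means were positive, or 62.2%, against 45.9% of all features. Without SYNCRIP, LARP4B and PUM2 there were 25 of 42, or 59.5%. At 48 h 22 of the 45 means were positive, or 48.9%, against 45.3%, and 19 of the 42, or 45.2%. Large changes were no more than a few. At 4 h a mean of at least 0.5 was reached by 7 of the 45 genes, or 15.6%, against 7.54% of all features, and a mean of -0.5 or less by 1, or 2.22%, against 7.24%. SYNCRIP, LARP4B and PUM2 are among the 7.

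The families differed in their medians, which are given without a test. DDX and DHX had the highest family medians at 4 h, at 0.41 and 0.40, followed by SRSF at 0.17 and PRPF at 0.12. RBM, HNRNP and SF3 lay at 0.06, 0.05 and 0.03, SNRP at -0.07 and LSM at -0.20. At 18 h DHX and DDX were at 0.34 and 0.22, and LSM was lowest at -0.10. At 48 h DHX and DDX had medians of 0.22 and 0.19, RBM lay at 0.00, and the other 6 families were negative, with SF3 at -0.15, HNRNP at -0.14, SRSF at -0.12 and LSM at -0.31. With 2 to 11 genes in a family these medians rest on few values, and the DHX median hides DHX38, the one gene of the 3 below 0.

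**Figure D3:**
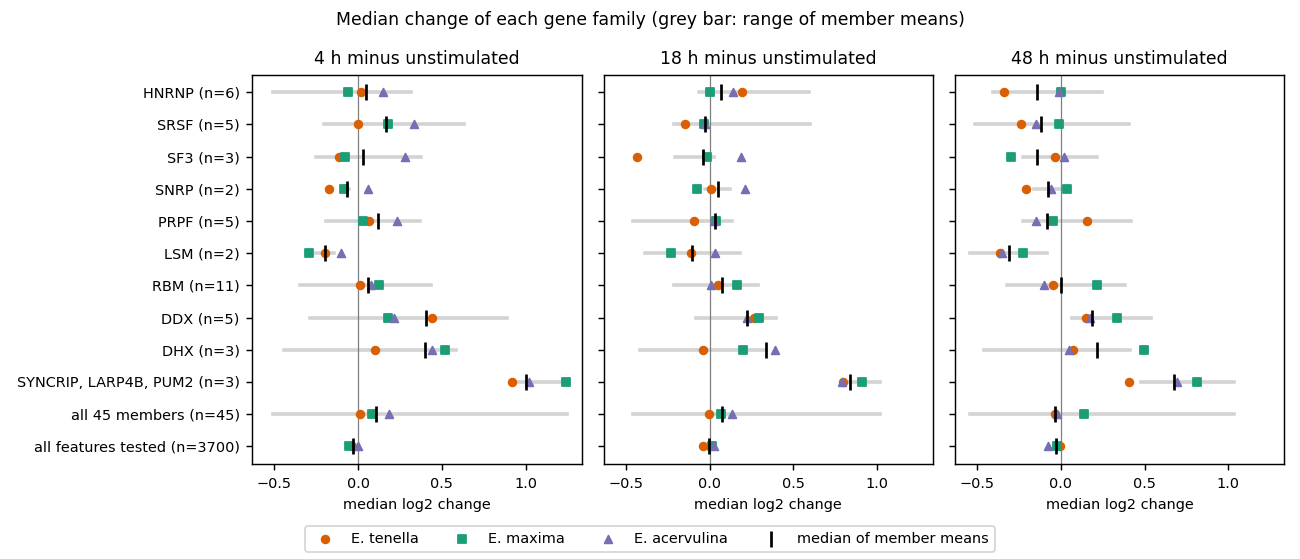
Median log2 change against unstimulated cells (x axes) of each gene family, of the 45 genes and of all features tested, at 4, 18 and 48 h. Symbols are the medians within 1 species, black bars the median of the genes' means, and grey bars the range of those means. The black bars of DDX and DHX stay right of 0 at the 3 times. Those of SRSF and HNRNP are left of 0 at 48 h. Symbols of single species lie on both sides of 0 for DHX at 18 h and for HNRNP at 48 h. The DDX symbols all lie right of 0, and the SRSF symbols at 48 h all lie left of it.

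By species, the 45 genes had medians at 4 h of 0.01 with E. tenella, 0.08 with E. maxima and 0.18 with E. acervulina, against -0.03, -0.06 and 0.00 for all features. At 48 h the order differed, with -0.04, 0.14 and -0.02, against -0.01, -0.02 and -0.08 for all features. In E. maxima cultures at 48 h, 8 of the 45 genes had a change of at least 0.5, or 17.8%, against 13.8% of all features. The counts were 2 in E. tenella cultures, or 4.44%, against 9.03%, and 5 in E. acervulina cultures, or 11.1%, against 5.84%. SYNCRIP, LARP4B and PUM2, added with results known, are among the 8 and the 5, and LARP4B is among the 2. Without these genes the shares with E. maxima and E. acervulina lay below those of all features. Every named family except SF3 and PRPF also had its highest 48 h median with E. maxima. The medians in the 3 species were -0.04, 0.22 and -0.10 for RBM, 0.15, 0.34 and 0.18 for DDX, and 0.07, 0.50 and 0.05 for DHX.

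A limma F test asked whether the mean change under stimulation differed between species. None of the 45 genes passed, against 0% of all features, with 0 of the 45 and 113 of the 3700 at an unadjusted p under 0.05. LARP4B had the lowest p of the 45, at an unadjusted 0.054, with mean changes over the times of 0.73 with E. tenella, 1.49 with E. maxima and 0.83 with E. acervulina. RBM14 followed at 0.15, with -0.41, 0.21 and -0.32, and DDX3X at 0.17, with 0.46, 0.86 and 0.17. The 95% interval of a difference between any 2 species extended 0.64 to either side in the median gene, and from 0.48 to 1.23 over the 45. Differences of that size could be present without being detected at this precision, and missing the threshold does not mean that the 3 parasites gave the same response.

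Set against array error alone, which compares 1 RNA sample with 1 other and not the conditions, single samples passed with at least a 2-fold change. At 4 h with E. maxima SYNCRIP, LARP4B, DDX5 and DDX3X passed (3.7% of all features), and with E. acervulina SYNCRIP and LARP4B did (3.95%). SYNCRIP and LARP4B were added by name with their earlier results known. Without them only DDX5 and DDX3X passed at 4 h, both with E. maxima, and no gene did with E. acervulina. With E. tenella none of the 45 passed at 4 h (0.919%). At an unadjusted p under 0.05 and any size there were 15 of the 45 and 977 of the 3700 features. At 18 h none passed in the E. tenella, E. maxima or E. acervulina cultures, against 0.568%, 0% and 0.784% of all features. An unadjusted p under 0.05 was found for 13, 15 and 11 of the 45, against 947, 1069 and 1008 of the 3700 features. At 48 h HNRNPA1 passed with E. tenella, at -1.01 (limma adjusted p = 0.030, against 2.46% of features). With E. maxima at 48 h only LARP4B, added by name, passed, at 1.55 (adjusted p = 0.016, against 4.32%). With E. acervulina none did at 48 h, against 0%, with 17 of the 45 and 995 of the 3700 features at an unadjusted p under 0.05.

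A difference between stimulated times contains no unstimulated level, although that from 4 to 48 h was estimated in part from the arrays that held unstimulated RNA. From 4 to 48 h RBM10 rose, 1 of the 45 genes against 3.3% of all features. SRSF7L, SYNCRIP and RBM3 fell, 6.67% of the 45 against 3.84% of all features. SYNCRIP among them was added by name with its earlier results known. SRSF7L changed by -0.96 with E. tenella, -0.78 with E. maxima and -0.76 with E. acervulina (mean -0.83 ± 0.11, adjusted p = 0.0069). SYNCRIP changed by -0.83, -0.56 and -0.92 (mean -0.77 ± 0.18, adjusted p = 0.035), and its 48 h mean did not pass against unstimulated cells. RBM10 changed by 0.55, 0.48 and 0.76 (mean 0.60 ± 0.15, adjusted p = 0.026). Each of these 3 genes moved one way in all 3 species.

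RBM3 changed by -1.40 with E. tenella, -0.53 with E. maxima and -0.33 with E. acervulina (mean -0.75 ± 0.57, adjusted p = 0.042). Without E. tenella its change was -0.43 (adjusted p = 0.16). The adjusted p of SRSF7L was 0.065 with E. tenella left out, 0.060 with E. maxima left out and 0.15 with E. acervulina left out. Those of SYNCRIP were 0.13, 0.087 and 0.22, and those of RBM10 0.091, 0.093 and 0.24.

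By sign alone, 17 of the 45 genes were lower at 48 h than at 4 h in all 3 species, or 37.8%, against 20.5% of all features. Among these were SRSF1, SRSF2, SRSF7L, HNRNPA1, HNRNPA2B1, SF3A3, PRPF3, PRPF4B, PRPF8 and the helicase genes DDX5, DDX3X and DDX19. SYNCRIP and PUM2, added with results known, are also among the 17. The 6 genes higher at 48 h in all 3 species were RBM10, RBM6, RBM41, SF3B1, DDX17 and DDX6, or 13.3%, against 21.3%. The 45 genes had a median difference of -0.11, against 0.01 for all features, and -0.09 without SYNCRIP, LARP4B and PUM2. All 5 SRSF means were lower at 48 h than at 4 h, from -0.83 for SRSF7L to -0.04 for SRSF5. The family median was -0.22, with -0.23, -0.12 and -0.49 in the 3 species.

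The steps in between held few calls. From 4 to 18 h none of the 45 genes passed, against 0.027% of all features, with 9 of the 45 and 494 features at an unadjusted p under 0.05. From 18 to 48 h none passed either, against 0%, with 6 of the 45 and 501 features at an unadjusted p under 0.05.

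**Figure D4:**
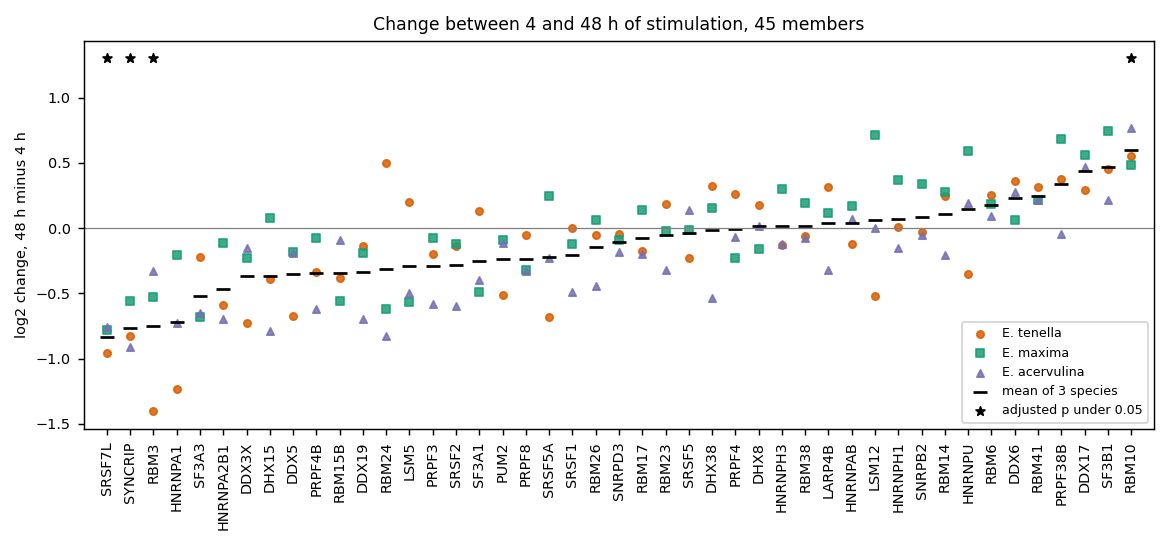
Log2 change between 4 and 48 h of stimulation (y axis) of the 45 genes, ordered by their mean (x axis). Symbols are the 3 species, black bars the mean, and stars mark an adjusted p under 0.05. SRSF7L, SYNCRIP and RBM3 lie at the left end and RBM10 at the right, each on one side of 0 in all species.

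Each cDNA clone was spotted 3 times, and genes with several clones show how far separate probes of one gene agreed within the same RNA. Of the 46 genes, 34 had 1 clone and 12 had several, and 10 had several clones with values on all arrays. In 5 of these 10 genes the clone means had opposite signs at 4 h, in 6 at 18 h and in 3 at 48 h. The gap between the highest and lowest clone of a gene at 4 h ran from 0.08 to 1.20, with a median of 0.49. The 4 DDX5 clones were all positive at 4 h, between 0.62 and 1.20, and the 2 HNRNPA1 clones lay within 0.16 of each other at every time. Other pairs disagreed. At 4 h 1 RBM3 clone was at 1.005 and the other at -0.20, and the DDX17 clones lay at 0.19 and -0.71. The SF3B1 clones were at 0.11 and -0.59, and the RBM15B clones at 0.78 and 0.03. With clones tested separately, the fall of RBM3 from 4 to 48 h passed for 1 clone (adjusted p = 0.031) and not the other (0.45). SYNCRIP, LARP4B, PUM2 and SRSF7L had 1 clone each. DDX3X had 2, of which 1 had values on all arrays, and that clone alone changed by 0.55 at 4 h (adjusted p = 0.067), which did not pass, against 0.73 for the averaged gene.

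**Figure D5:**
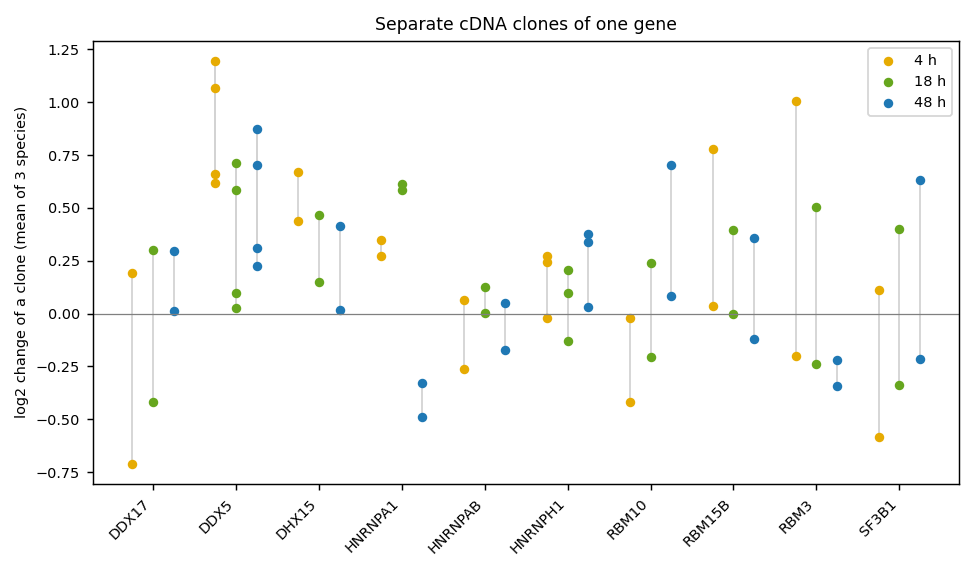
Mean log2 change over the 3 species (y axis) of each cDNA clone, for the 10 genes with several clones measured (x axis), at 4, 18 and 48 h (colours). Grey lines join the clones of a gene, short for HNRNPA1 and long for RBM3, DDX17 and SF3B1.

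A wider list of 111 symbols of RNA processing genes outside the families, chosen with earlier results of the series known but not for how they moved, had 37 genes tested. At 4 h 2 of the 37 were called higher and 2 lower, or 5.41% each way, close to the 4.51% and 5.89% of all features. G3BP1 and G3BP2, which nucleate stress granules, rose by 0.50 ± 0.20 and 0.63 ± 0.06 (adjusted p = 0.026 and 0.010). YBX1, a packaging protein of mRNA, fell by 0.70, with an SD of 0.19 (adjusted p = 0.022), and CSTF3, of the cleavage and polyadenylation machinery, fell by 0.58, with an SD of 0.39 (adjusted p = 0.040). At 18 h none of the 37 passed, against 1.14% of all features higher and 0.486% lower, with 13 of the 37 at an unadjusted p under 0.05. Of the 3700 features, 478 were higher and 511 lower at that unadjusted p. At 48 h 1 of the 37 passed each way, against 1.73% of all features higher and 1.86% lower. G3BP2 was higher, at 0.38 ± 0.07 (adjusted p = 0.049), and the spliceosome assembly gene SMNDC1 lower, at -0.69 ± 0.10 (adjusted p = 0.023).

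Over the mean of the times, 4 of the 37 rose, G3BP1, G3BP2, LARP1 and SON, and 3 fell, YBX1, BCAS2 and SMNDC1. These were 10.8% and 8.11% of the list, against 4.16% and 6.3% of all features. LARP1, a La-related protein that controls mRNAs of the translation machinery, changed by 0.44 (SE 0.12, adjusted p = 0.044). LARP4, the paralog of LARP4B, did not pass, with 0.25 (SE 0.18, adjusted p = 0.37). SON, a nuclear speckle protein, changed by 0.42, and BCAS2, of a spliceosome activating complex, by -0.44 (adjusted p = 0.048 and 0.035). From 4 to 48 h 1 of the 37 rose and 2 fell, against 3.3% and 3.84% of all features. CSTF3 rose by 0.79 (adjusted p = 0.024), and SMNDC1 and the splicing regulator KHDRBS1 changed by -0.50 and -0.76 (adjusted p = 0.030 and 0.026). The medians of the 37 genes were 0.07, 0.08 and 0.05 at 4, 18 and 48 h.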

How the data were processed

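The authors deposited 1 log ratio per spot and array, taken as log2, the usual base for spotted arrays (the largest, 8.477 in absolute size, is too large for log10 of scanner signals). No source used here gives the base, dye order, background correction or normalization. Array medians ran from -0.04 to 0.12 and 12199 to 13938 of 14718 rows held a value. Rows were named from the platform annotation (9066 with 1 symbol, 3 with several, 5649 with none) and averaged per symbol, and all 46 symbols match current RefSeq chicken symbols. A least squares fit to each loop gave the levels of its 4 RNAs, and cancels a dye effect that is constant over arrays. limma 3.58.1 (R 4.3.3) fitted these 12 levels on time, blocked by species (6 residual degrees of freedom). The species F test left 4, and the fit to arrays, with a dye term and 9 coefficients for species and time, left 2. P-values were two-sided with Benjamini-Hochberg adjustment over 3700 features, and scripts were tested on simulated data. A mean ± SD is over n = 3 species. The genes and lists were chosen with earlier results of these data known. Genes named with values were SYNCRIP, LARP4B and PUM2, every gene past a threshold and the largest mean change in each family. The 3 lowest p of the species test were named too, with paralogs and partners beside these genes. PRPF38B, LSM12 and RBM24 fall outside these rules and were named for values at 48 h that differed between species. Alternatives were array centring, array scaling, 3 of 4 arrays per loop, separate clones, a fit to the 12 arrays with common time terms, and each species left out.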

Additional observations from a re-analysis of the deposited data

Results flagged for a closer look

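Both genes below had all 3 stimulated samples of one species on one side of unstimulated cells and all 3 of another on the opposite side, and the difference was not past the species F test (limma adjusted p = 0.9998 for each; 0 of 3700 features passed). RBM26, an RNA-binding protein gene, had a mean log2 change over the 3 times of 0.1064 with E. tenella, 0.2529 with E. maxima and -0.2514 with E. acervulina. SF3B1, of the branch point snRNP, had 0.1891 with E. acervulina and -0.2959 with E. tenella. The 2 SF3B1 clones disagreed, and neither alone had this pattern. With E. acervulina 1 clone changed by -0.36, -0.28 and -0.12 at 4, 18 and 48 h, and the other clone changed by 0.22 at 48 h with E. tenella.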

How the results depend on the processing

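No call turned its direction under any alternative run. The median change of the 45 genes at 4 h ran from 0.0514 to 0.1474 over the alternatives, and that at 18 h from 0.0358 to 0.1320. At 48 h it ran from -0.0674 to 0.0423 and was 0.0067 with arrays centred. At 4 h the 5 genes called became 13 in the fit to the 12 arrays with common time coefficients. That fit takes the arrays as independent although each RNA was on 2 of them, so its p-values can be too small. The 5 became 9 with clones as features, and between 0 and 4 with a species left out. The 5 were all higher, but the 13 included HNRNPU as lower. With clones as features a gene counted as called, or its call as kept, if any of its clones passed. RBM3 counted at 4 h with 1 clone at 1.005 (limma adjusted p = 0.044) and the other at -0.20 (adjusted p = 0.27). Lower were 1 DDX17 clone and 1 SF3B1 clone, at -0.71 and -0.59 (limma adjusted p = 0.041 and 0.020). Over all features the 385 of 3700 called became 742 in the 12-array fit, 437 of them lower, and 502 of 4450 with clones, 281 of them lower. At 18 h the 3 called became 0 with 3 of 4 arrays admitted and 0 with any species left out. Over all features the 60 of 3700 called at 18 h became 5 of 6825 and at most 1 of 3700. At 48 h the 3 called became 8 in the 12-array fit (485 against 133 of all features) and 5 with clones as features (180 of 4450). They became 0 with 3 of 4 arrays admitted (37 of 6825) and 0 with any species left out (at most 2 of 3700). Over the mean of the times the 4 called became 7 in the 12-array fit (673 against 387 of all features). They became 0 with any species left out (at most 4 of 3700). From 4 to 18 h the 12-array fit called 1 of the 45 genes, SRSF7L, and 50 of the 3700 features. From 4 to 48 h the 4 called became 1, SRSF7L, with 3 of 4 arrays admitted, and 0 with any species left out. Over all features the 264 of 3700 called became 154 of 6825 and at most 11 of 3700. Of the 19 calls of named genes, 19 were kept with arrays centred, 19 in the 12-array fit, 17 with clones as features, 16 with arrays scaled and 9 with 3 of 4 arrays admitted, where 6825 features were tested. Leaving out a species leaves 2 samples per time, and the precision is limited by the number of arrays and of RNA samples. Direction, log base and the shared unstimulated RNA could not be settled.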

Other observations

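HNRNPD, which promotes the decay of mRNAs with AU-rich elements, had a value on 11 of the 12 arrays and so entered only the fit that admits 3 of 4 arrays per loop, where the dye effect of the incomplete loop does not cancel. Its log2 change there was 0.09 at 4 h, -0.40 at 18 h and -1.08 at 48 h, with an SE of 0.30, and none passed (limma adjusted p = 0.89, 0.45 and 0.12). From 4 to 48 h it changed by -1.17 (adjusted p = 0.077), which did not pass. Of the 6 HNRNP genes on all arrays, 2 had negative mean differences from 4 to 48 h, HNRNPA1 at -0.72 and HNRNPA2B1 at -0.47. The other 4 had positive ones of at most 0.14, and none of the 6 passed (adjusted p of 0.089 or more). HNRNPA2B1 had 2 clones, of which a single clone had values on all arrays. Tested alone, that clone went from 0.46 at 4 h to -0.50 at 48 h, and this fall passed (limma adjusted p = 0.015).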
